A study of Caenorhabditis elegans with 2 samples.

Results

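The cytosolic ribosomal protein genes of Caenorhabditis elegans are the protein-coding genes named rpl- (large subunit) and rps- (small subunit). By this rule 78 of 19973 nuclear protein-coding genes were taken, 47 of the large and 31 of the small subunit. The names follow the annotation, but the family was selected on the signal of its regions in these same peak lists, so its counts are a description and no test was made of them. A window of 1000 bp before and 500 bp after every transcript start of a gene was searched, and the region of highest signal with its summit inside was taken as the gene's best region. The same search was made for all 19973 genes, and their share is given beside that of the family.

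Ribosomal proteins fold around the ribosomal RNAs to form the machine that translates mRNA into protein. The small subunit reads the message, and the large subunit joins amino acids and holds the tunnel through which the new chain leaves. A growing larva makes ribosomes in every tissue, and the genes for their proteins are among the most active of the genome. The protein followed here, ZTF-11, belongs to the Myt1 family of DNA-binding zinc-finger proteins and is known from the formation of neurons.

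The data were ChIP-seq region lists for ZTF-11 from whole larvae of the first larval stage (L1), with both sexes together and age given as unknown. Both biological replicates came from strain OP236, which carries the transgene wgIs236 in an unc-119(ed3) background. The transgene supplies ZTF-11 with GFP and FLAG at its C-terminus, so tagged protein from an added copy was followed. The labels name no promoter, no antibody beyond the target ztf-11, and no second condition. The 2 replicates formed 1 group, and nothing could be compared between conditions. Whole animals were used, so a region strong in a few cells and one weak in many cells cannot be told apart.

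Each of 3 deposited lists held 30000 regions on the genome build ce11, 1 for each replicate and 1 for both together (the pooled list). They contained background as well as peaks, so the presence of a region is a low bar and its rank carries the information. The deposit also held a list of 88 consensus peaks, kept after a reproducibility threshold and made from the same reads. Signal is the authors' value for each region in each list. Signals of different lists are on different scales, since the median over the list was 16.1 pooled, 9.89 in replicate 1 and 9.18 in replicate 2. Read depth was unknown. A region entered the 1000 highest at a signal of 27.4 pooled, 17.6 in replicate 1 and 16.3 in replicate 2.

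The regions of highest signal lay upstream of genes for both subunits. A consensus peak stood at 7 of the 78 starts, those of rpl-3, rpl-20, rpl-24.2, rpl-15, rps-28, rps-15 and rps-12. The sequences below are the 101 bp centred on the pooled summit at 5 of these genes. In each of the 5, both ends and the summit lay outside annotated genes. The sequences are read 5′ to 3′ on the strand of the gene from the WBcel235 assembly, which is ce11, and show the DNA at the centre of strong regions. The windows of rpl-24.2 and rps-15 are not printed, although the rps-15 summit was intergenic too. Capitals mark letters that matched a word on either strand. The words were AAGTT of the Myt1 family, the splice acceptor form TTTCAG, the repeat GAGAG, the promoter word TATAAA and the word GGCGC. A further 4 were picked after these sequences had been read, namely TAAATCGA as well as TACGGTAA, with GTGTATG and also CTCCGCC.
rpl-3, chrIII:3867567-3867667 (+ strand): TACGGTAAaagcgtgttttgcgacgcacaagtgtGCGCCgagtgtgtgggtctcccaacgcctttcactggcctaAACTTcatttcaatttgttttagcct
rpl-20, chrIV:4750033-4750133 (− strand): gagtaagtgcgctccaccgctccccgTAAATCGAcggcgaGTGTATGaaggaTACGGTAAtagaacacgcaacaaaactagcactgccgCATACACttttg
rpl-15, chrIV:654862-654962 (− strand): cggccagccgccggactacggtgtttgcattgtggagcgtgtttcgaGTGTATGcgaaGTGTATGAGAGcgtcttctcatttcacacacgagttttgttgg
rps-28, chrIV:1659226-1659326 (+ strand): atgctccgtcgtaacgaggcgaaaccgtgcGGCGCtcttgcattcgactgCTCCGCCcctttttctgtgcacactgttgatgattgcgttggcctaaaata
rps-12, chrIII:5679013-5679113 (+ strand): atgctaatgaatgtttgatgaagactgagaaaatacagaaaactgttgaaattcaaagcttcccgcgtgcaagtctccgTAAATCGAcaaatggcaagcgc

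None of the searched words was in all 5 windows. TACGGTAA stood in those of rpl-3 and rpl-20, TAAATCGA in those of rpl-20 and rps-12, and GTGTATG in those of rpl-15 and rpl-20. In rpl-15 one GTGTATG overlapped the GAGAG that follows it. The words picked from these sequences are a description of them, and their shares elsewhere are given further on. G and C made up 48.5% of the rpl-3 window, 50.5% at rpl-20, 52.5% at rpl-15, 53.5% at rps-28 and 40.6% at rps-12. The median over the best summits of all protein-coding genes was 31.7%, and all 5 windows were above it.

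Among the large subunit genes, rpl-3 had the highest signal in the family. Its product lies next to the site where peptide bonds are made. The rpl-3 region had a pooled signal of 98.0, with 38.3 in replicate 1 and 58.2 in replicate 2. It was the region of rank 2 of the pooled list, 12 of replicate 1 and 2 of replicate 2. The summit lay 237 bp upstream of the start (gene WBGene00004414, chromosome III, 3867854 to 3869587) in all 3 lists, between rpl-3 and acs-19, which is on the same strand. The rpl-20 region had a signal of 82.4 pooled, 39.2 in replicate 1 and 41.4 in replicate 2. Its ranks were 8, 9 and 10. Its summit lay 305 bp upstream of rpl-20 on chromosome IV and only 157 bp upstream of Y17G9B.5, which runs the other way, so the region cannot be given to 1 of the 2 genes. Both regions were thus near the top of every list.

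The other genes counted as large subunit at consensus peaks were rpl-24.2, taken by its name alone, and rpl-15, whose product binds ribosomal RNA. The rpl-24.2 region had a signal of 54.7 pooled, 25.4 in replicate 1 and 20.5 in replicate 2, with ranks of 27, 78 and 178. Its summit was 158 bp upstream of the start, inside an intron of C03D6.1, which overlaps the region on the other strand. The rpl-15 region had 50.4, 20.8 and 28.3, with ranks of 38, 318 and 40, and lay 336 bp upstream of rpl-15 between it and the divergent K11H12.8. These regions stayed among the 1000 highest of both replicates, but their order differed between replicates.

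Several large subunit genes further down were strong in 1 replicate only. The rpl-11.2 region, at a gene whose product binds the smallest rRNA of the large subunit, had 37.9 pooled (rank 121), 11.7 in replicate 1 (rank 8611) and 25.8 in replicate 2 (rank 59). The rpl-29 region had 33.0 pooled (rank 273), 11.2 in replicate 1 (rank 10005) and 18.4 in replicate 2 (rank 394). The rpl-35 region, at the gene of a protein near the mouth of the exit tunnel, had 29.9 pooled (rank 548), none in replicate 1 and 23.9 in replicate 2 (rank 74). All 3 rested on replicate 2. The reverse held for rpl-12, whose product forms the base of the stalk where elongation factors dock, with 36.8 pooled (rank 142), 19.3 in replicate 1 (rank 528) and 15.02 in replicate 2 (rank 1656). Its summit fell 5 bp inside the transcript and within the window of lin-54. The rpl-14 region had 29.2 pooled (rank 642) and was outside the 1000 highest of both replicates, with 15.7 (rank 2042) and 13.2 (rank 3340). Its best region in replicate 2 was centred 10 bp downstream of the start and that in the pooled list 252 bp upstream.

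The remaining large subunit genes had signals below the limit of the 1000 highest. In the pooled list rpl-10, whose product lies near the catalytic centre, had 24.7, rpl-43 23.5, rpl-38 22.8, rpl-23 22.7, rpl-24.1 19.9 and rpl-7A 19.6. The summits of rpl-10 and rpl-23 lay in their own coding exons, 45 and 52 bp downstream of the start. Of these 6, only rpl-43 was among the 1000 highest of a replicate, with 17.3 in replicate 2 (rank 659). Replicate 1 had 11.96 at a different summit, 870 bp upstream and not 627 bp. A further 18 large subunit genes had pooled signals between 12.5 and 19.5. One of these, rpl-41.2, encoding one of the smallest ribosomal proteins, had 17.965 pooled and 10.5 in replicate 1 but 19.9 in replicate 2 (rank 229). The best summit lay 13 bp downstream in the pooled list, 523 bp upstream in replicate 1 and 105 bp upstream in replicate 2.

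Genes that share a number in their names could differ widely. The pooled signal was 37.9 at rpl-11.2 and 13.0 at rpl-11.1, which had 10.1 in replicate 1 and no region in replicate 2. It was 54.7 at rpl-24.2 and 19.9 at rpl-24.1, which had no region in replicate 1 and 13.5 in replicate 2. The pairs rpl-25.1 and rpl-25.2 (14.1 and 12.5) and rpl-41.1 and rpl-41.2 (18.4 and 17.965) were both low. How alike the genes of each pair are in sequence or in function was not examined. Reads from near-identical copies may be shared or dropped by the alignment, whose handling of them was not given in the sources used here.

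Among the small subunit genes, rps-28 had the highest signal. Its product sits near the channel through which mRNA leaves. The rps-28 region had 64.3 pooled, 21.3 in replicate 1 and 40.6 in replicate 2, with ranks of 22, 260 and 13, and lay 415 bp upstream, also within the window of Y41D4B.4. The rps-15 region, at the gene of a protein that reaches toward the decoding site, had 47.0, 24.099 and 21.6, with ranks of 51, 111 and 134. It lay 389 bp upstream, between rps-15 and the divergent F36A2.9. The rps-12 region had 43.7, 19.9 and 21.8, with ranks of 65, 419 and 127, and was 235 bp upstream of rps-12 but 58 bp upstream of ska-3 on the other strand. All 3 were among the 1000 highest of both replicates.

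The other 4 small subunit regions among the 1000 highest ranked higher in replicate 1 than in replicate 2. The rps-29 region, at the gene of a zinc-binding protein, had 35.3 pooled (rank 186), 19.99 in replicate 1 (rank 401) and 14.2 in replicate 2 (rank 2290), and lay in a UTR exon of snt-2. The rps-26 region had 29.6 pooled (rank 600), 21.3 (rank 263) and 10.5 (rank 9646). It lay 8 bp inside the transcript of the neighbouring tmem-107, and it was the one best region of the family with an annotated small RNA gene (F39B2.14) within 200 bp. The rps-19 region had 28.4 pooled (rank 795) and 17.5 in replicate 1 (rank 1025), with the summit 348 bp upstream. The best region of replicate 2 was a different one, 35 bp downstream of the start, with 9.55 (rank 13258). At the pooled site replicate 2 had 8.99 (rank 15953). The orthologue of rps-19 in people is mutated in Diamond-Blackfan anaemia. Its pooled summit was nearer to hsr-9, 97 bp upstream of it. The rps-23 region, at the gene of a decoding-centre protein, had 30.8 pooled (rank 436), 16.4 (rank 1573) and 14.4 (rank 2126). It was thus outside the 1000 highest of both replicates, and its summit lay nearer to dpm-3.

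Just outside the 1000 highest pooled regions stood rps-5 with 26.8 (rank 1151), rps-21 with 26.8 (rank 1158) and rps-1 with 26.8 (rank 1159). They illustrate how much the limit decides. The rps-1 region had 19.3 in replicate 1 (rank 541) and 16.7 in replicate 2 (rank 839) and was the 1 gene of the family that was among the 1000 highest of both replicates without a consensus peak. The rps-5 region had 20.2 in replicate 1 (rank 381) and 8.19 in replicate 2 (rank 20506), and the replicate 2 summit was a different one, 308 bp upstream and not 531 bp. The rps-21 region had 13.4 and 15.5 and lay in its own intron, 151 bp downstream. The pooled signals of rps-4, rps-20, rps-11, rps-10 and rps-30 were 21.5, 20.5, 20.2, 19.9 and 19.5. A further 10 small subunit genes lay between 13.7 and 19.4.

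**Figure D1:**
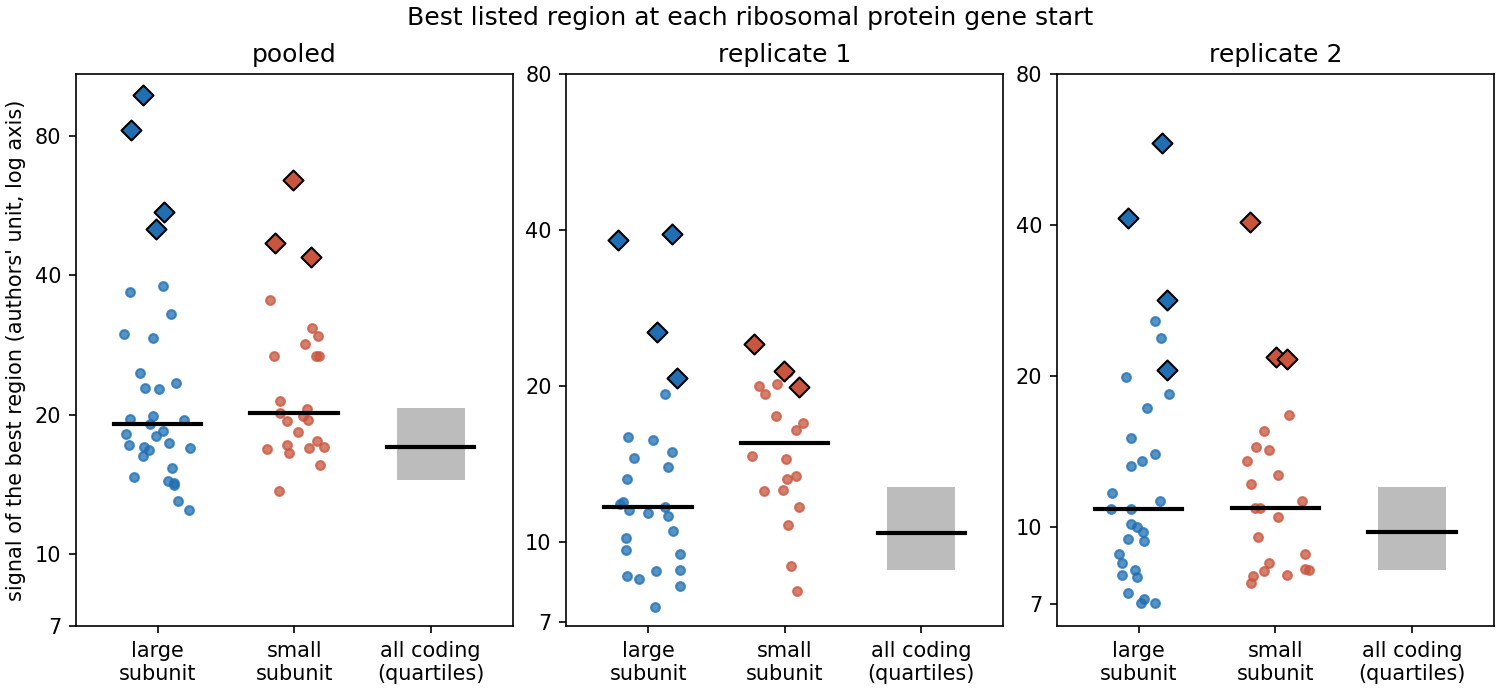
Signal of the best region at each ribosomal protein gene with one (points; log axis, the authors' unit, own scale in each list), for large and small subunit genes in the pooled list and both replicates. Diamonds are genes at consensus peaks, black lines are medians, and the grey box spans the quartiles of all protein-coding genes with a region. In the pooled list rpl-3 at 98.0 and rpl-20 at 82.4 stand at the top, and most other genes lie between 12.5 and 30.8.

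Counted over the family, 58 of the 78 genes (74.4%, exact 95% Clopper-Pearson interval 63.2 to 83.6, which covers counting of genes only) had a region in the pooled list, beside 45.2% of all protein-coding genes. In replicate 1, 47 genes (60.3%) had one, beside 44.8%. In replicate 2, 54 genes (69.2%) had one, beside 45.7%. Relative to all genes, the shares differed more for strong regions. A region among the 1000 highest stood at 16 genes (20.5%, interval 12.2 to 31.2) in the pooled list, beside 2.90%. It stood at 12 genes (15.4%) in replicate 1, beside 2.48%, and at 13 (16.7%) in replicate 2, beside 2.73%. Consensus peaks stood at 7 genes (8.97%, interval 3.68 to 17.6), beside 0.411%. The family was selected for this, so these shares say what was found and give no evidence of their own.

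The replicates overlapped in part. A region in all 3 lists was found at 37 genes (47.4%, interval 36.0 to 59.1), beside 22.0% of all genes. A region among the 1000 highest of both replicates was found at 8 genes (10.3%, interval 4.53 to 19.2), beside 0.411%. These were rpl-3, rpl-20, rpl-24.2, rpl-15, rps-28, rps-15, rps-12 and rps-1. All 12 members among the 1000 highest of replicate 1 had some region in replicate 2, beside 74.0% of such genes overall. Of the 13 among the 1000 highest of replicate 2, 12 had a region in replicate 1, beside 75.2%, and rpl-35 was the exception.

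**Figure D2:**
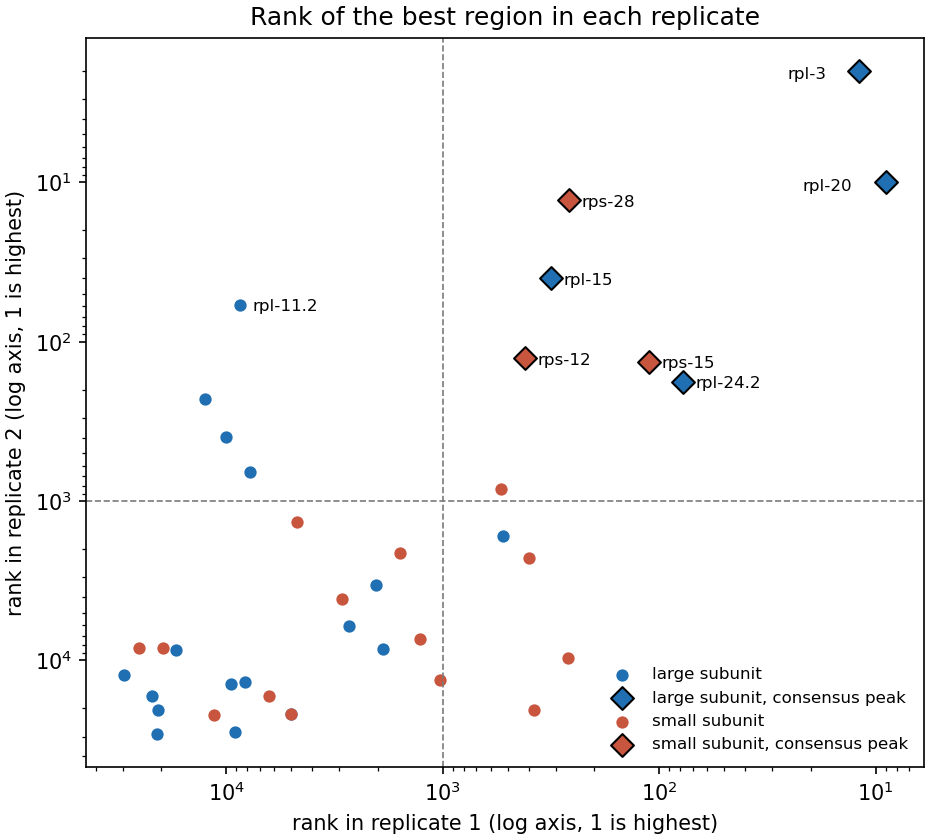
Rank of the best region in replicate 1 (x axis) against replicate 2 (y axis), both on log axes with rank 1 at the right and top, for the 38 ribosomal protein genes with a region in both. Diamonds are genes at consensus peaks and dashed lines mark rank 1000. The 7 diamonds and rps-1 (ranks 541 and 839) fill the upper right corner, and rpl-11.2 (ranks 8611 and 59) is high in replicate 2 alone.

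The pooled summits themselves were matched less often than the genes. Of the 58 best pooled summits, 37 had a summit of replicate 1 within 200 bp, 44 one of replicate 2, and 27 (46.6%) one of both. The 4 with a match in neither were those of rpl-18, rpl-19, rps-25 and rps-6, with pooled signals of 14.7, 14.2, 16.9 and 13.7. All 4 were low. Of the 16 best summits among the 1000 highest, 15 were matched in replicate 1 and 15 in replicate 2. The matching was not made for the best summits of all genes, so these counts cannot be called particular to the family. The pooled list was made from both replicates, so matches to them are in part built in.

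Large and small subunit genes did not separate clearly. A pooled region stood at 33 of 47 large subunit genes (70.2%, interval 55.1 to 82.7) and at 25 of 31 small subunit genes (80.6%, interval 62.5 to 92.5). A region among the 1000 highest stood at 9 (19.1%, interval 9.15 to 33.3) and 7 (22.6%, interval 9.59 to 41.1). At this limit the replicates ordered the subunits differently. In replicate 1, 10.6% of large and 22.6% of small subunit genes had a region among the 1000 highest, and in replicate 2 19.1% and 12.9%. With 200 and with 30000 regions counted, the replicates gave the same order. Large subunit genes had the higher share of the 200 highest regions in both (6.38% against 3.23%, and 12.8% against 9.68%), and small subunit genes that of all 30000 (57.4% against 64.5%, and 66.0% against 74.2%). The shares at 200 rest on 3 large and 1 small subunit genes in replicate 1, and on 6 and 3 in replicate 2. In the pooled list the order at 200 was the other way (12.8% of large against 12.9% of small). Consensus peaks stood at 4 large (8.51%) and 3 small subunit genes (9.68%).

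Over the genes with a region, the median pooled signal was 19.5 (quartiles 17.0 and 29.0) in the family, beside 17.0 (14.5 and 20.7) over all protein-coding genes. It was 19.1 for large and 20.2 for small subunit genes. The median for large minus that for small was −1.09 over pooled regions, −3.88 for replicate 1 and −0.0772 for replicate 2. The family's median was 13.2 in replicate 1, beside 10.4, and 10.9 in replicate 2, beside 9.77. The family's medians were above those of all genes in every list, by less than the range between the quartiles of all genes, and its upper pooled quartile differed more (29.0 beside 20.7).

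**Figure D3:**
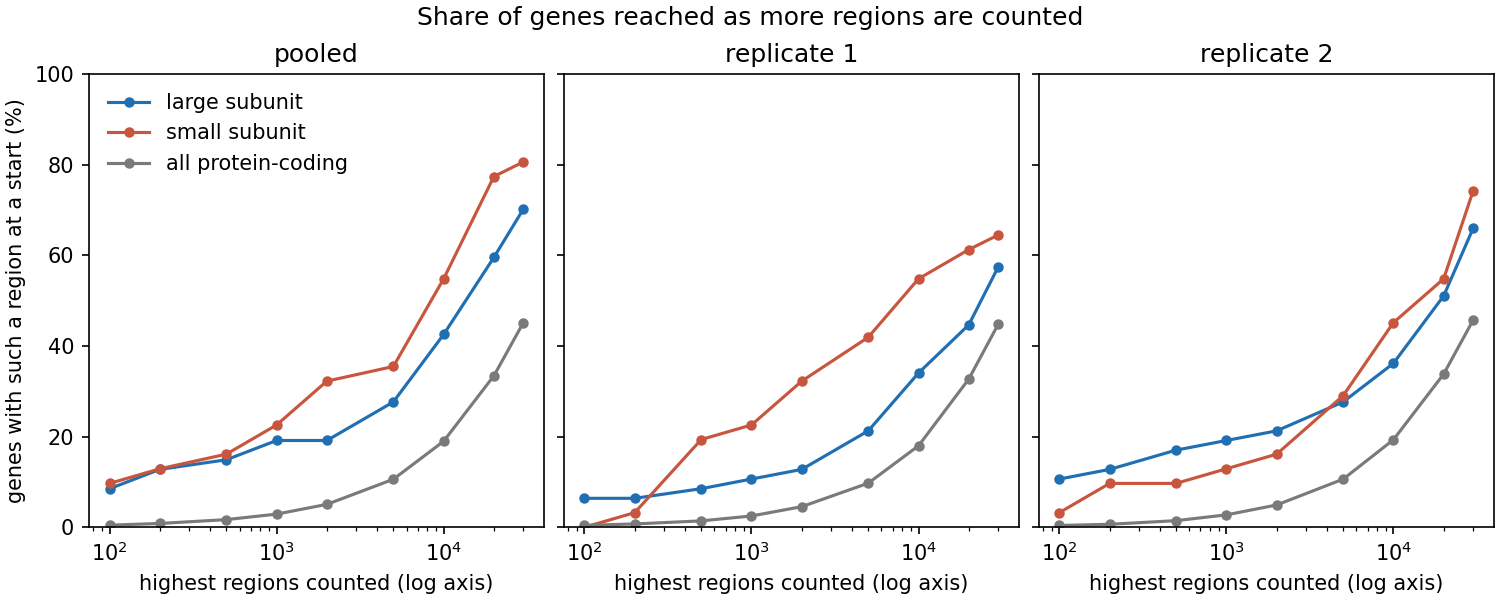
Share of genes (y axis, percent) with a start-region among the highest regions counted (x axis, log), for large subunit, small subunit and all protein-coding genes in each list. In the pooled list the 100 highest regions reach 8.51% of large subunit, 9.68% of small subunit and 0.456% of all genes. All 30000 regions reach 70.2%, 80.6% and 45.2%. In both replicates the large subunit is higher at 100 and 200 regions and the small subunit from 5000 on. At 500, 1000 and 2000 regions their order differs between the replicates. In the pooled list the small subunit is higher at 100 (9.68% against 8.51%) and 200 regions (12.9% against 12.8%) too.

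The summits lay upstream of the starts. The median distance of the best pooled summit from the start was −236 bp in the family, beside −247 bp over all genes, where negative values are upstream. The summit was upstream at 47 of 58 genes (81.0%), beside 71.0%. It was 50 to 500 bp upstream at 35 genes (60.3%), beside 36.8%. Small subunit genes had it upstream at 23 of 25 (92.0%) and large subunit genes at 24 of 33 (72.7%). The 6 genes with the summit in a coding exon (rpl-1, rpl-10, rpl-11.1, rpl-19, rpl-23 and rpl-27) were all of the large subunit.

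**Figure D4:**
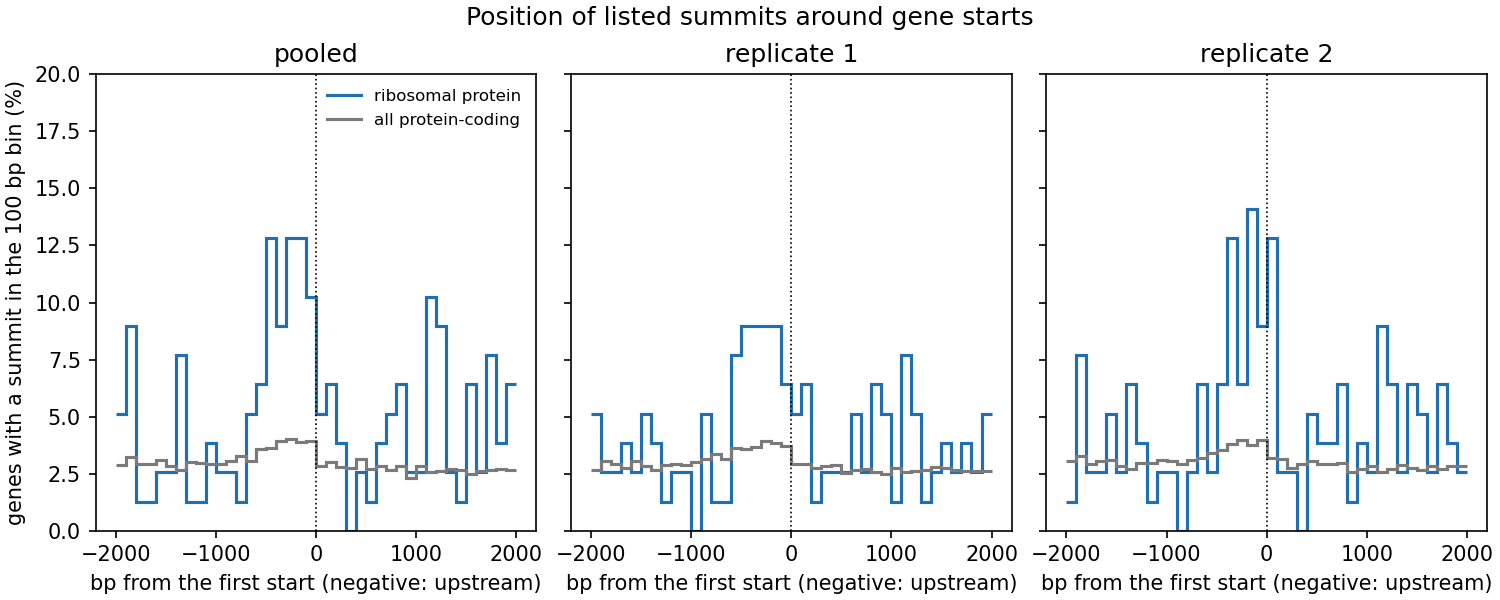
Share of genes (y axis, percent) with a summit in each 100 bp bin from 2000 bp upstream to 2000 bp downstream of the first start (x axis, bp), for ribosomal protein genes and all protein-coding genes in each list. In the pooled list the 5 bins within 500 bp upstream hold summits at 8.97% to 12.8% of the family per bin, above the curve of all genes, and outside them single bins vary widely because each rests on few genes.

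Over the whole stretch from 500 bp to 1 bp upstream of the first start, 41 genes (52.6%) had a pooled summit, beside 18.7% of all genes. The same stretch gave 39.7% beside 18.1% in replicate 1 and 47.4% beside 18.3% in replicate 2. The stretch from 1000 to 501 bp upstream gave 17.9% beside 15.3%, and the first 500 bp downstream 17.9% beside 14.2%. The stretch from 1001 to 2000 bp downstream gave 44.9% beside 24.5%. With a median gene length of 754 bp, beside 2027 bp, that stretch lies past the end of many ribosomal protein genes.

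Ribosomal protein genes lie closer to their upstream neighbours than other genes do. The median gap to the next gene upstream was 558 bp, beside 937 bp over all genes. The next gene upstream ran the other way, head to head, less than 1000 bp off at 47 of 78 genes (60.3%), beside 17.2%. The best region was also at the start of another protein-coding gene for 38 of the 58 (65.5%), beside 25.5%. The member's own start was the nearest one for 41 (70.7%), beside 85.6%. Of the 16 members among the 1000 highest, 10 had the nearest start, for which no share over all such genes was taken. The upstream neighbour was on the other strand for 12 of the 16. It was so for 54 of all 78 members (69.2%) and for 319 of the 579 protein-coding genes among the 1000 highest. Among head-to-head genes alone, a pooled region stood at 34 of 47 members (72.3%), beside 49.1% of all such genes. A region among the 1000 highest stood at 9 of 47 (19.1%), beside 5.32%, with 17.0% beside 4.45% in replicate 1 and 12.8% beside 4.86% in replicate 2. The share over all genes was itself higher in this arrangement than without regard to it (5.32% against 2.90%). The part of the arrangement in the family's shares was not tested. Within the family the arrangement did not order the genes in 1 way. Of the 24 members with their upstream neighbour on the same strand, 18 had a pooled region, beside 44.1% of all such genes. Among the 1000 highest pooled regions were 4 (16.7%), beside 2.42%. In replicate 1 only 1 of the 24 (4.17%) was among the 1000 highest, beside 2.09%. In replicate 2 it was 4 (16.7%), beside 2.25%. Some region stood at 62.5% of these 24 in replicate 1 and at 87.5% in replicate 2. For the 47 head-to-head members it was 59.6% in each replicate.

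Of the best pooled summits, 40 (69.0%) were intergenic, beside 48.4%. An intron held 7 (12.1%), beside 26.7%, a coding exon 6 (10.3%), beside 16.8%, and a UTR exon 5 (8.62%), beside 8.07%. The 58 genes shared 55 regions. A single region of signal 19.9 stood between rps-10 and rpl-24.1, one of 19.5 between rps-30, made as a fusion to a ubiquitin-like protein, and rpl-39, a protein of the exit tunnel, and one of 16.9 between rps-14 and rpl-36. Each of these joins a large and a small subunit gene.

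On chromosome II 3 of 10 members (30.0%) had a pooled region, beside 39.5% of all genes there. None of the 3 was among the 1000 highest, beside 75 of 3449 genes there. In replicate 2, 1 member on II (rpl-43) was among the 1000 highest. Replicate 1 had 4 of the 10, beside 39.9%, and replicate 2 had 3, beside 40.6%. On chromosome III the pooled share was 83.3% of 18, beside 52.1%, but 9 of 18 had a region in replicate 1, beside 50.2%, and 72.2% in replicate 2, beside 51.7%. It was 88.2% of 17 on chromosome IV, beside 49.7%. On chromosome I the share was 73.9% of 23, beside 49.4%, and on chromosome V it was 6 of 8, beside 41.4%, with no region among the 1000 highest on V. Both members on X had one, beside 42.5% of all genes there. The 16 regions among the 1000 highest were on I (5), III (4), IV (6) and X (1). Over all genes such a region stood at 123 of 2878 on I, 96 of 2640 on III and 113 of 3281 on IV. It stood at 117 of 4994 on V and 55 of 2731 on X. The counts of members are too small to be read as a pattern of chromosomes.

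No region in any list was found at 12 genes (15.4%, interval 8.21 to 25.3), beside 32.5% of all genes. They were rpl-2, rpl-4, rpl-13, rpl-16, rpl-17, rpl-26, rpl-33, rpl-34, rpl-36.A and rpl-42 of the large subunit, and rps-9 and rps-13 of the small. That was 10 of 47 large (21.3%, interval 10.7 to 35.7) and 2 of 31 small subunit genes (6.45%, interval 0.791 to 21.4). A further 8 had a region in a replicate but none in the pooled list. Of these rps-3, at the mRNA entry channel, had 12.6 in replicate 1 and rpl-32 11.3 in replicate 2. The other way round, rps-6, rps-22 and rps-25 had a pooled region and none in either replicate within the window. The edge of the window decided some genes, since rpl-21 entered with a summit 991 bp upstream, while rpl-34 and rpl-31 missed with summits 720 and 760 bp downstream.

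The DNA under the summits differed from that of other genes in base composition. Over the 55 regions of the family, the median share of G and C in the central 101 bp was 40.6%, beside 31.7% over 7915 best regions of all genes. It was 41.6% at large and 35.6% at small subunit genes. At the family's 16 regions among the 1000 highest it was 47.5%, beside 32.7% at the 453 best regions of all genes among the 1000 highest. In the promoters from 250 bp upstream to 50 bp downstream, the family had 33.0%, beside 34.3%. The summits were thus rich in G and C and the promoters were not. The part of base composition in the shares and in the signal was not tested.

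AAGTT, the word of Myt1 family factors, was searched on both strands like every word here. It was in 12 of the 55 summit windows (21.8%), beside 37.5% of those of all genes and 38.4% of all 30000 regions. GGCGC was in 8 (14.5%), beside 4.54%, and of these 7 were at large subunit genes. GAGAG was in 9 (16.4%), beside 11.9%. TATAAA was in 2 (3.64%), beside 14.8%. TTTCAG, the form of the splice acceptor, was in 14 (25.5%), beside 22.0%. In the promoters TTTCAG was in 69.2%, beside 51.7%, and AAGTT in 53.8%, beside 69.1%. GAGAG was in 35.9% of them, beside 39.9%, TATAAA in 26.9%, beside 37.9%, and GGCGC in 11.5%, beside 14.1%.

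The words picked from the printed sequences were rare everywhere. TAAATCGA was in 2 of the 55 windows (3.64%), beside 0.783% of all genes' windows, TACGGTAA in 2 (3.64%), beside 0.392%, and GTGTATG in 3 (5.45%), beside 0.644%. CTCCGCC was in 1 (1.82%), beside 1.15%. Besides rpl-15 and rpl-20, GTGTATG was in the window of rps-1. None of the picked words was in the window of rps-15 or rpl-24.2, the consensus genes not printed. These shares include the sequences the words were picked from and so were bound to be raised.

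Genes that work with these proteins were looked at as named lists, to be read against the 45.2% of all genes with a pooled region, the 2.90% among the 1000 highest and the 0.411% at consensus peaks. Among 70 mitochondrial ribosomal protein genes (mrpl- and mrps-), which serve the separate ribosome of the mitochondrion, 45 (64.3%) had a pooled region, 4 (5.71%) were among the 1000 highest and 2 were consensus peaks, at mrpl-28 (42.8) and mrpl-45 (41.0). In replicate 1, 5.71% of them were among the 1000 highest, beside 2.48%, and in replicate 2 2.86%, beside 2.73%. Among 41 translation factor genes, 31 (75.6%) had a pooled region and 6 (14.6%) were among the 1000 highest, with 9.76% in replicate 1 and 17.1% in replicate 2. The strongest was the initiation factor subunit gene eif-3.C with 68.4, a consensus peak, followed by eef-2, the factor that moves the ribosome along, with 39.2. Of 33 ribosome biogenesis genes matched from 41 names, 21 (63.6%) had a region and 2 (6.06%) were among the 1000 highest, rpoa-1 of RNA polymerase I with 30.2 and nol-14 with 34.8. The share among the 1000 highest was 6.06% in each replicate too, and none was at a consensus peak.

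Of the 6 genes, matched from 10 names, for ribosome parts that are not named rpl- or rps-, 4 had a region in each of the 3 lists and 1 was among the 1000 highest of each. That gene, ubl-1, which encodes a small subunit protein fused to a ubiquitin-like protein, had 41.7 pooled, 21.5 in replicate 1 and 18.1 in replicate 2 and was at a consensus peak. The others were low, with 18.5 at rack-1, 15.6 at rla-2 of the stalk and 12.6 at ubq-2, which encodes ubiquitin fused to a large subunit protein, and the stalk genes rla-0 and rla-1 had none.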

How the data were processed

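ChIP-seq regions of ZTF-11 were analysed in 1 group of 2 biological replicates. The deposited ce11 narrowPeak lists give a signal (column 7) and a score (column 9) per region, both made by the authors, and per the deposited README texts they were derived from replicate or pooled alignments against a control library. The sources used here do not give the aligner, peak caller or reproducibility threshold, and read depth is unknown. The score was used only to rank regions in 1 alternative. Summits were set against Ensembl release 115 genes (WBcel235, which is ce11) with Python 3.11.15, pandas 2.3.3 and pysam 0.24.0, and intervals came from SciPy 1.17.1. The assignment was tested on simulated data. Ranks run over nuclear regions. Named genes were all members at consensus peaks, the 15 of highest pooled signal per subunit, members that share a region, members without any region and members high in both replicates; others were named after their values were seen. The members and lists were chosen with earlier results of these data known. Alternatives changed the window, the start used, the rank limit and the replicate. Lists on ce10 were not used.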

Additional observations from a re-analysis of the deposited data

How the results depend on the processing

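Over 39 alternatives (other windows, the most upstream start alone, region overlap, rank limits, ranking by the score, members left out, each replicate left out), 35 moved their value little and 4 moved it more. Counts were judged by a fixed fold limit. The medians were judged by the standard deviation between the replicates, 2.69 for the subunit difference and 59.0 bp for the distance. The first is larger than the pooled subunit difference itself (−1.09), so little movement there does not mean a stable value. The replicate values that set each standard deviation were also judged by it. Those of signal are on other scales than the pooled list, so these judgements say little. In all 21 comparisons of shares the family stayed above all protein-coding genes. Genes with a pooled region numbered 47 to 64 and those among the 1000 highest 12 to 17, and the 500 and 2000 highest regions gave 12 and 19. Without 1 replicate, taking the 88 highest regions of the other list (chosen after seeing the data), 3 to 6 members replaced the 7 at consensus peaks, with 3 when replicate 2 was left out. The difference between subunit medians ran from −3.88 to −0.0772 without 1 replicate, and the median distance from −250 to −166.5 bp. With a window of 2000 bp upstream the median distance was −342 bp, since farther summits then enter. For the others the cause was not tested. Read depth was unknown, so weak regions cannot be told from missing ones. No paired analysis was possible because the replicates formed 1 group.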
